A study of Mus musculus with 9 samples.

Results

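Genes of the red blood cell lineage were followed in RNA of immunopanned brain microglia. They are the adult haemoglobin genes Hba-a1, Hba-a2, Hbb-bs and Hbb-bt and the erythroid genes Alas2, Car1, Kel, Slc4a1 and Ermap, chosen by gene symbol, and all 9 were found among the 18571 genes of the deposited table. The 4 globins are called globins below and the other 5 are called precursor genes. These names are labels only, since both are transcribed in nucleated precursors, while globin transcripts stay abundant in reticulocytes. The comparison asked whether globins and precursor genes moved together across the 3 genotypes.

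The mice were on a C57BL6/j background and 9 months old. There were 3 libraries of wild type (WT), 3 of APP/PS1 and 3 of APP/PS1:Cx3cr1-CreER:Cx43-flox/flox (called cKO here). APP/PS1 is an amyloid model with human transgenes for the amyloid precursor protein and presenilin 1. In cKO a tamoxifen-activated Cre is expressed from the Cx3cr1 locus, which is active in microglia and also in other myeloid cells, and deletes floxed Cx43 (Gja1, a gap junction protein). The labels give no Cre and no floxed allele for WT and APP/PS1, and give the same tamoxifen protocol for all 9 libraries, by gavage at 8 months for 5 days at 0.1 mg/g. Brains were perfused, meninges were removed, and cells of cortex and hippocampus were captured on a plate with an antibody to CD45, a protein that leucocytes carry and mature red cells lack. The labels do not say whether the libraries of a genotype came from separate animals, so the p-values measure only the spread between these libraries, which may be technical.

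Red cells mature in the bone marrow. Nucleated precursors under the control of GATA1 and KLF1 switch on haem synthesis, membrane and globin genes, then expel the nucleus and become reticulocytes, which circulate and still hold RNA. A reticulocyte makes no new transcripts, so its RNA is what the precursor left behind, mostly globin messages. Adult mouse haemoglobin joins alpha chains, from the paired genes Hba-a1 and Hba-a2, with beta chains, from the paired genes Hbb-bs and Hbb-bt. Haemoglobin transcripts are abundant in blood, and brain cells hold them at low levels.

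The alpha globin genes lie in tandem on the plus strand of chromosome 11, Hba-a1 (gene identifier 15122) at chr11:32283672-32284486 and Hba-a2 (110257) at chr11:32296492-32297310 in the build GRCm38.p6. The beta globin genes lie on the minus strand of chromosome 7, Hbb-bs (100503605) at chr7:103826523-103827928 and Hbb-bt (101488143) at chr7:103812524-103813923. Alas2 (11656) is at chrX:150547417-150570622, Car1 (12346) at chr3:14766214-14808365 and Kel (23925) at chr6:41686329-41704334. Slc4a1 (20533) is at chr11:102348820-102365281 and Ermap (27028) at chr4:119175457-119190013. A window of 250 bases before the transcript start used in the RefSeq promoter table was read for the 7 members with an entry there. For Kel and Ermap that start lies inside the annotated gene, so the last 9 and 18 bases of their windows overlap it. The globins, Alas2 and Kel are shown, 5′ to 3′ on the gene's own strand. Below, the globins and Alas2 had their lowest means in cKO and Kel in APP/PS1. Capitals mark the 5-letter motifs GATAA (the core that GATA factors bind), CACCC (bound by KLF factors), CCAAT and TATAA, or their reverse complements.

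Hba-a2, chr11:32296242-32296491, plus strand: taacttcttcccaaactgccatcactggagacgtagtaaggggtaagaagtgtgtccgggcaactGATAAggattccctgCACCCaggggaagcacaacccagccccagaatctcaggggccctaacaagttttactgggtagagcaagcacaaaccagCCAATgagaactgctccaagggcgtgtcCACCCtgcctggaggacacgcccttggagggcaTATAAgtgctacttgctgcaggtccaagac

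Hbb-bs, chr7:103827929-103828178, minus strand: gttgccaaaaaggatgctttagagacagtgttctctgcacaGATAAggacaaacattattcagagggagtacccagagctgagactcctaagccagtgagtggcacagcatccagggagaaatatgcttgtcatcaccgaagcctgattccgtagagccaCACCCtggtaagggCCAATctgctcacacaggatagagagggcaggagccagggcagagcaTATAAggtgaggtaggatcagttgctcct

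Hbb-bt, chr7:103813924-103814173, minus strand: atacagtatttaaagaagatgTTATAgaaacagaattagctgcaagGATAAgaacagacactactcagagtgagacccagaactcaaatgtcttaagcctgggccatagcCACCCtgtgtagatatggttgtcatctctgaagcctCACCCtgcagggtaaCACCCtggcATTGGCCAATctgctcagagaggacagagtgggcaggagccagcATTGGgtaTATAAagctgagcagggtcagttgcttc

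Alas2, chrX:150547167-150547416, plus strand: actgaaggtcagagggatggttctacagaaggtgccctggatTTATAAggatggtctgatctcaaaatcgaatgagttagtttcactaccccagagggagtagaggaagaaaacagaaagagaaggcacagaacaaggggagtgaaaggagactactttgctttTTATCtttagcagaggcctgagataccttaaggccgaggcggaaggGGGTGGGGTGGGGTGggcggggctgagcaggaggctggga

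Kel, chr6:41704326-41704575, minus strand: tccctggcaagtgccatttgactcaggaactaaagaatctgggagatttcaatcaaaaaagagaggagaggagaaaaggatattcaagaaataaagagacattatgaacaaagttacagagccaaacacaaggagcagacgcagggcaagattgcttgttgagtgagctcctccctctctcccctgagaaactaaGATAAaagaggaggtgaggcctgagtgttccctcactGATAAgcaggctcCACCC

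The Hba-a1 window is the same sequence moved by 3 bases, and over the whole table entries all 297 bases that overlap at that offset are identical to Hba-a2. In the last 100 bases before the start, Hbb-bt matched Hbb-bs at 74 bases at the best ungapped offset, of 1 base. Each of the 7 windows held at least 1 GATAA and at least 1 CACCC on either strand. Over 32851 windows of the same length, 22.6% held GATAA, 52.0% held CACCC and 10.1% held both, while 33.8% held CCAAT and 22.8% held TATAA. Read on the gene's own strand, TATAA in the globin windows stood 27 to 30 bases before the start, CCAAT 75 to 91 bases before it and GATAA 182 to 209 bases before it. Kel held GATAA at 55 and 18 bases and CACCC at 5 bases before its start, the last within the overlap with the annotated gene, without a CCAAT or TATAA match. In Alas2 the TATAA matches on the 2 strands overlap; no other matches in the printed windows do. These letters describe the windows only, and binding was not measured.

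Total estimated counts ran from 18907681 to 19565354 per library. All 10 microglial markers examined were detected, with summed levels of 21360 to 25590 CPM (counts scaled to a common library size). Gja1, the targeted gene, was at 34.1, 31.6 and 35.1 CPM in the WT libraries, 39.7, 37.0 and 42.5 CPM in the APP/PS1 libraries and 27.2, 25.3 and 28.1 CPM in cKO. The Y-linked gene Ddx3y had 4137 to 4538 counts in each WT and APP/PS1 library and 0, 1 and 2 in cKO, so sex and genotype cannot be told apart in either comparison that involves cKO.

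Every one of the 9 genes was lower in APP/PS1 than in WT, and every one was lower in cKO than in WT. In APP/PS1 the globins stood at 17.7% to 27.0% of their WT level, Alas2 at 12.3%, Slc4a1 at 0.939%, Kel at 0.517%, Car1 at 0.291% and Ermap at 72.1%. In cKO the globins were lower still than in APP/PS1, whereas Slc4a1, Car1 and Kel were higher than in APP/PS1. Relative to WT, 8 of the 9 genes stood at 7.30% to 15.1% in cKO, and the exception was Ermap at 67.6%. In bulk RNA, fewer erythroid cells and less erythroid RNA per cell cannot be told apart.

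The test was edgeR's quasi-likelihood test over 14696 genes with Benjamini-Hochberg adjustment, and a change was called at an adjusted p under 0.05. All 9 members passed the filter on low counts, Kel only through its WT libraries. In APP/PS1 against WT, 9 of 9 members were called lower, where 32.0% of all tested genes were called lower and 26.9% higher. In cKO against APP/PS1, 5 members were called lower, 3 higher and 1 neither, where 27.7% of all genes were called lower and 27.3% higher. In cKO against WT, 9 of 9 were called lower, where 23.0% of all genes were called lower and 24.7% higher. The median log2 change of the members was -2.50, -0.41 and -3.42 in the 3 comparisons, against -0.04, -0.01 and -0.01 over all tested genes. The 3 comparisons share libraries, since each group enters 2 of them, so their values are given side by side and are not independent.

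**Figure D1:**
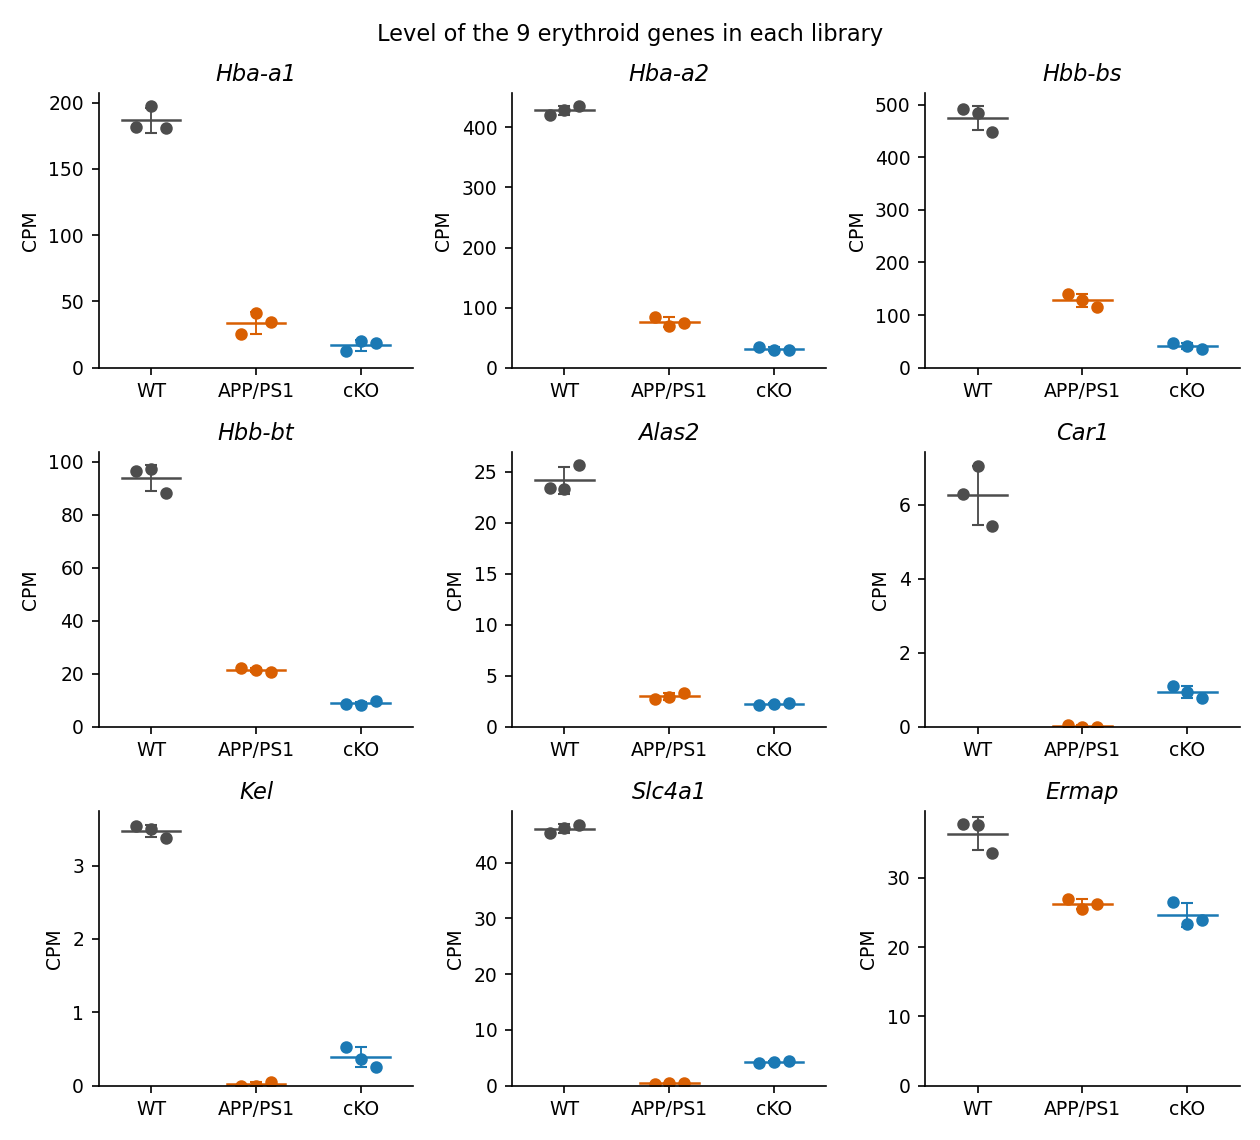
Level of each of the 9 erythroid genes in CPM (TMM-scaled library sizes) in WT, APP/PS1 and cKO. Points are libraries, horizontal lines are means and bars are SD (n = 3), and each panel has its own axis from 0. In all panels the WT points lie above the others; the globins step down from WT to APP/PS1 to cKO, while Car1, Kel and Slc4a1 are lowest in APP/PS1.

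Hba-a2, an alpha globin gene, had 8425, 8704 and 8896 counts in the WT libraries, 1547, 1292 and 1368 in the APP/PS1 libraries and 657, 576 and 553 in the cKO libraries. The groups did not overlap, with WT highest and cKO lowest. Its mean level was 428 CPM ± 7.54 (SD, n = 3) in WT, 75.9 ± 7.72 in APP/PS1 and 31.3 ± 3.15 in cKO. Hba-a2 was 5.64-fold lower in APP/PS1 than in WT (log2 change -2.50, SE 0.07, edgeR adjusted p 1.06e-10) and 2.43-fold lower in cKO than in APP/PS1 (log2 change -1.28, SE 0.08, edgeR adjusted p 2.74e-07). Against WT it was 13.7-fold lower in cKO (log2 change -3.78, SE 0.07, edgeR adjusted p 1.34e-11), the largest fall in that comparison among the 9 genes.

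Hba-a1, the neighbouring alpha gene, had 3635, 4012 and 3691 counts in the WT libraries, 462, 766 and 642 in the APP/PS1 libraries and 232, 381 and 360 in the cKO libraries. The order of the groups was that of Hba-a2, again without overlap, but its libraries spread more widely in the 2 amyloid groups. It was 5.54-fold lower in APP/PS1 than in WT (log2 change -2.47, SE 0.18, edgeR adjusted p 2.36e-05), 1.98-fold lower in cKO than in APP/PS1 (log2 change -0.99, SE 0.24, edgeR adjusted p 0.0130) and 11.0-fold lower in cKO than in WT (log2 change -3.46, SE 0.20, edgeR adjusted p 9.71e-06).

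The alpha genes are near copies, so the split of their reads is uncertain. Of the 616 stretches of 50 bases (the read length) in Hba-a2 transcripts, 89.3% also occur in Hba-a1, and 72.3% of the 761 in Hba-a1 occur in Hba-a2. The share of alpha counts given to Hba-a1 was 30.1%, 31.6% and 29.3% in the WT libraries, 23.0%, 37.2% and 32.0% in the APP/PS1 libraries and 26.1%, 39.8% and 39.4% in the cKO libraries. The share moved within groups more than the sum did. The coefficient of variation of Hba-a1 was 23.8% in APP/PS1 and 24.2% in cKO, while that of the alpha sum was 1.12% and 3.29%. The sum of both genes was 615 CPM ± 12.2 (SD, n = 3) in WT, 110 ± 1.23 in APP/PS1 and 48.2 ± 1.59 in cKO.

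Hbb-bs, the beta globin gene with the highest counts, had 9843, 9842 and 9147 counts in the WT libraries, 2570, 2393 and 2134 in the APP/PS1 libraries and 876, 800 and 676 in the cKO libraries. The groups did not overlap. Its fall in APP/PS1 was the smallest of the globins, 3.71-fold (log2 change -1.89, SE 0.10, edgeR adjusted p 2.79e-06). Its further fall from APP/PS1 to cKO was 3.11-fold (log2 change -1.64, SE 0.12, edgeR adjusted p 2.11e-05), and cKO was 11.5-fold below WT (log2 change -3.53, SE 0.11, edgeR adjusted p 2.51e-07).

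Hbb-bt, the other adult beta globin gene, had 1932, 1975 and 1801 counts in the WT libraries, 404, 398 and 386 in the APP/PS1 libraries and 165, 160 and 183 in the cKO libraries. It repeated the order of the other globins without overlap. Hbb-bt was 4.39-fold lower in APP/PS1 than in WT (log2 change -2.13, SE 0.05, edgeR adjusted p 3.12e-22), 2.41-fold lower in cKO than in APP/PS1 (log2 change -1.27, SE 0.08, edgeR adjusted p 1.35e-13) and 10.6-fold lower in cKO than in WT (log2 change -3.40, SE 0.06, edgeR adjusted p 5.07e-25). Hbb-bs and Hbb-bt share 381 stretches of 50 bases, which are 53.2% of those in Hbb-bs and 58.3% of those in Hbb-bt, so their split is uncertain too. The beta sum was 569 CPM ± 28.3 (SD, n = 3) in WT, 150 ± 13.4 in APP/PS1 and 50.04 ± 5.20 in cKO.

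Alas2 encodes the erythroid form of the first enzyme of haem synthesis and is made in few other cells. Its counts were 468, 474 and 525 in the WT libraries, 49, 54 and 62 in the APP/PS1 libraries and 41, 43 and 44 in the cKO libraries. Both amyloid groups lay far below WT, and the gap between them was narrow, with the highest cKO library just below the lowest APP/PS1 library. Of its stretches of 50 bases, 11.5% also occur in other annotated genes, mostly Apex2. Alas2 was 8.10-fold lower in APP/PS1 than in WT (log2 change -3.02, SE 0.10, edgeR adjusted p 9.61e-20) and 10.8-fold lower in cKO than in WT (log2 change -3.43, SE 0.10, edgeR adjusted p 3.07e-20). Between cKO and APP/PS1 the change was 1.33-fold (log2 change -0.41, SE 0.15, edgeR adjusted p 0.0298). That call was lost without APP/PS1 library 3 (log2 change -0.32, edgeR adjusted p 0.156), without cKO library 1 (-0.39, edgeR adjusted p 0.0713) and without cKO library 2 (-0.41, edgeR adjusted p 0.0571) and also with DESeq2 and on TPM, and over all alternatives its adjusted p ran from 0.00416 to 0.156.

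Slc4a1 encodes band 3, the anion exchanger that anchors the red cell membrane skeleton. It had 908, 936 and 956 counts in the WT libraries, 7, 9 and 8 in the APP/PS1 libraries and 78, 82 and 86 in the cKO libraries. The 3 groups lay far apart, and the lowest group was APP/PS1. Slc4a1 was 105-fold lower in APP/PS1 than in WT (log2 change -6.71, SE 0.11, edgeR adjusted p 9.34e-26), 9.81-fold higher in cKO than in APP/PS1 (log2 change 3.29, SE 0.20, edgeR adjusted p 7.83e-14) and 10.7-fold lower in cKO than in WT (log2 change -3.42, SE 0.07, edgeR adjusted p 1.48e-23). None of its stretches of 50 bases occurs in another annotated gene.

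Car1 encodes carbonic anhydrase 1, an abundant enzyme of red cells. It had 126, 143 and 111 counts in the WT libraries, 1, 0 and 0 in the APP/PS1 libraries and 21, 18 and 15 in the cKO libraries. APP/PS1 was thus at the edge of detection, and the ratios to it rest on 1 count. Over the summed libraries WT was 347-fold above APP/PS1 (95% exact interval 61.9 to 13700) and cKO was 52.4-fold above it (9.01 to 2110). The edgeR adjusted p of these changes was 7.55e-16 and 3.72e-08. cKO was 6.59-fold below WT (log2 change -2.72, SE 0.19, edgeR adjusted p 4.70e-12), the smallest fall in that comparison apart from Ermap. Of its stretches of 50 bases, 13.4% also occur in Gm5843, so reads from these places could be counted for either gene.

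Kel encodes the Kell blood group protein, a membrane endopeptidase of red cells and their precursors. It had 71, 71 and 69 counts in the WT libraries, 0, 0 and 1 in the APP/PS1 libraries and 10, 7 and 5 in the cKO libraries. The order was that of Slc4a1 and Car1, at lower counts. Over the summed libraries WT was 193-fold above APP/PS1 (95% exact interval 34.2 to 7640) and cKO was 21.3-fold above it (3.45 to 880). The edgeR adjusted p of these changes was 2.99e-13 and 7.14e-05. cKO was 8.89-fold below WT (log2 change -3.15, SE 0.27, edgeR adjusted p 1.49e-10). These intervals cover counting error only, since PCR copies were not told apart.

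Ermap encodes an erythroid membrane-associated protein of the immunoglobulin superfamily, which carries the Scianna blood group in humans. It had 758, 765 and 686 counts in the WT libraries, 493, 475 and 486 in the APP/PS1 libraries and 501, 445 and 459 in the cKO libraries. WT lay above both amyloid groups, and these overlapped each other. Ermap was 1.39-fold lower in APP/PS1 than in WT (log2 change -0.47, SE 0.06, edgeR adjusted p 1.43e-07) and 1.48-fold lower in cKO than in WT (log2 change -0.57, SE 0.06, edgeR adjusted p 1.04e-08). Between cKO and APP/PS1 it did not pass the test (log2 change -0.09, SE 0.06, edgeR adjusted p 0.222), and on TPM the sign was the opposite (0.09). Its changes were the smallest of the 9 genes in each comparison.

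**Figure D2:**
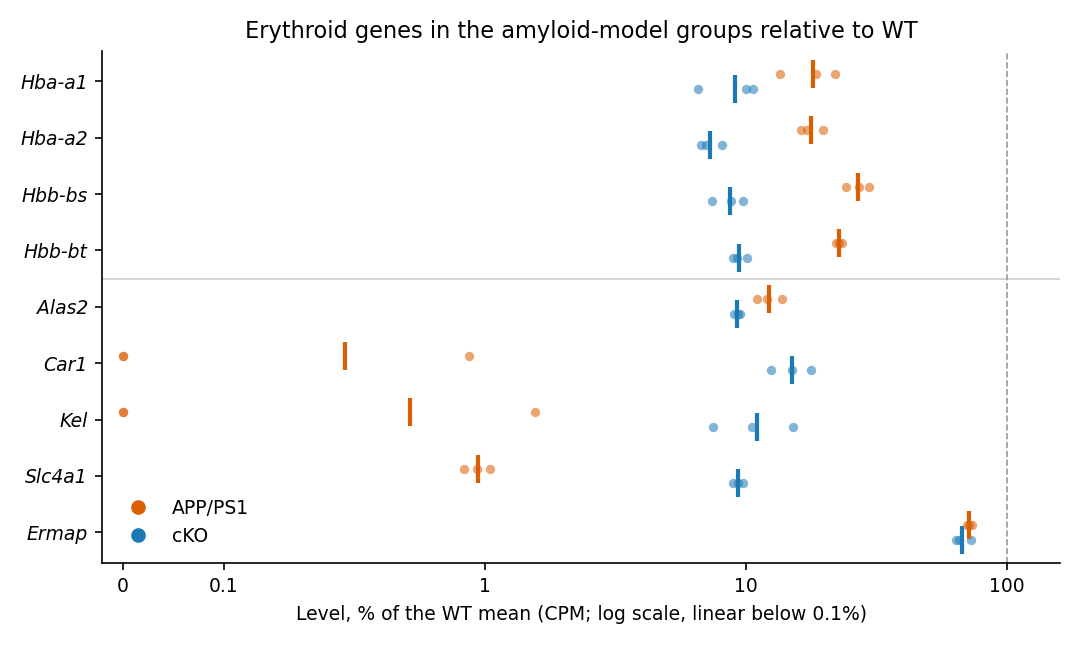
Level of the 9 erythroid genes in APP/PS1 and cKO as a percentage of the WT mean (CPM), on a log axis that is linear below 0.1%. Points are libraries and vertical marks are group means; the dashed line is WT. The cKO marks of all genes but Ermap lie between 7.30% and 15.1%, whereas the APP/PS1 marks run from 0.291% for Car1 to 72.1% for Ermap.

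Levels can be compared between genes on the deposited TPM, which is per transcript length. In WT the order of the mean levels was Hba-a2 at 1963 TPM, Hbb-bs at 1895, Hba-a1 at 862, Hbb-bt at 381, Alas2 at 29.6, Slc4a1 at 24.1, Ermap at 19.7, Car1 at 12.8 and Kel at 4.58. Only Hba-a2 and Hbb-bs overlapped between neighbours in that order, with ranges of 1931 to 1997 and 1788 to 1965 TPM. In APP/PS1, Hbb-bs led at 390 TPM, ahead of Hba-a2 at 265, and the precursor genes were led by Ermap at 10.7 and Alas2 at 2.79. Slc4a1 was at 0.17 TPM there, and Car1 and Kel were listed at 0 in 2 of 3 libraries each. In cKO, Hbb-bs at 143 TPM and Hba-a2 at 125 overlapped, and the precursor genes followed as Ermap at 11.5, Alas2 at 2.38, Slc4a1 at 1.96, Car1 at 1.69 and Kel at 0.43. Slc4a1 and Car1 overlapped in that group. The main shift in the order was that of Ermap, which took the third place among the precursor genes in WT and led them in both amyloid groups.

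Setting globins against precursor genes gave different pictures with and without Ermap. The 4 globins held 0.125% of all counts in WT, 0.0249% in APP/PS1 and 0.00965% in cKO. The ratio of globin counts to the counts of all 5 precursor genes was 10.2 ± 0.127 in WT, 8.74 ± 0.519 in APP/PS1 and 3.03 ± 0.165 in cKO (SD, n = 3). The order of WT and APP/PS1 turned on the scale, since on TPM the ratio was 56.2 in WT, 61.1 in APP/PS1 and 20.5 in cKO. Ermap made up 31.3% of the precursor sum in WT but 88.4% in APP/PS1 and 75.7% in cKO, so in the amyloid groups that ratio mostly set globins against Ermap. Without Ermap the ratio was 14.8 ± 0.555 in WT, 76.1 ± 11.8 in APP/PS1 and 12.5 ± 0.586 in cKO. The group that stood apart was then APP/PS1, not cKO. The cKO libraries, at 11.81 to 12.87, still all lay below the WT libraries, at 14.17 to 15.15. Leaving out Ermap was chosen after seeing the data.

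Among the ratios given here, the contrast was widest against Car1, Kel and Slc4a1 alone, a sum also chosen after seeing the data. There were 21.6, 21.3 and 20.7 globin counts for each count of these 3 genes in the WT libraries, 623, 539 and 503 in the APP/PS1 libraries and 17.7, 17.9 and 16.7 in the cKO libraries. WT and cKO thus lay close together, although without overlap, while APP/PS1 lay at 2620% of the WT mean. Against Alas2 alone the ratio was 49.2 ± 3.77 in WT, 88.2 ± 14.4 in APP/PS1 and 44.0 ± 3.45 in cKO, with WT and cKO overlapping, although cKO was below WT in 3 of 3 same-numbered pairs. No p is given for these ratios because the genes were chosen with earlier results known.

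The ratio of alpha to beta globin counts does not depend on how reads were split within each pair. It was 1.02, 1.08 and 1.15 in the WT libraries, 0.676, 0.737 and 0.798 in the APP/PS1 libraries and 0.854, 0.996 and 1.06 in the cKO libraries. APP/PS1 lay below both other groups without overlap, and these overlapped each other. Within same-numbered libraries cKO was below WT in 3 of 3 pairs, so the overlap does not show that these groups are alike. On TPM the means were 1.24 in WT, 0.846 in APP/PS1 and 1.12 in cKO, in the same order.

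**Figure D3:**
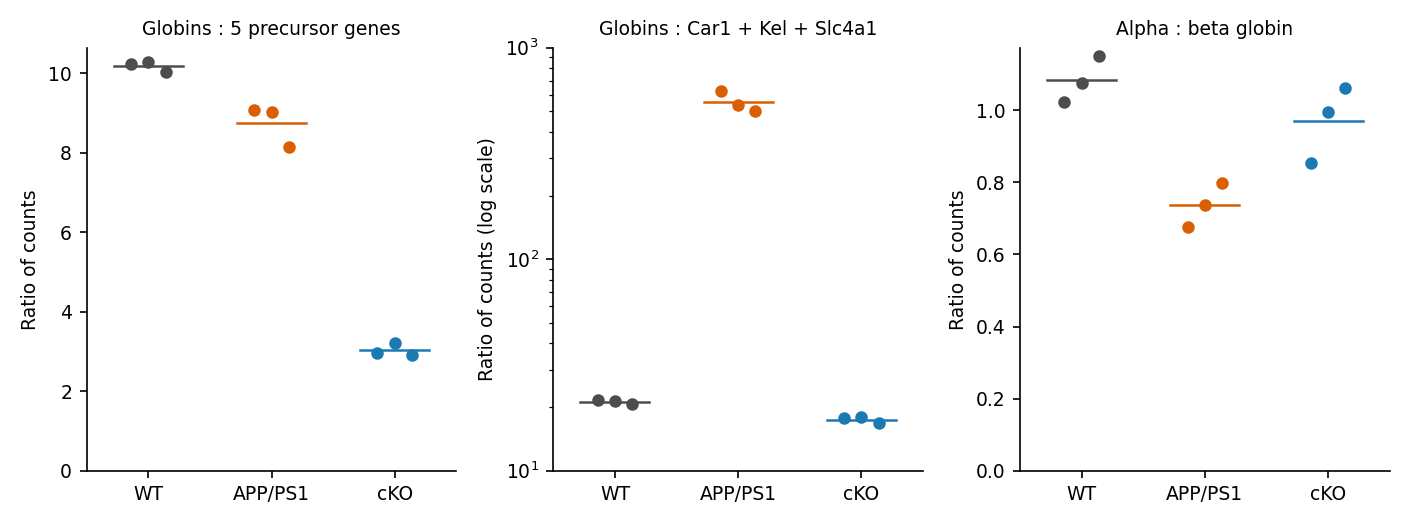
Ratios of summed counts in each library, with points for libraries and lines for group means. The left panel shows the 4 globins over all 5 precursor genes, the middle panel the globins over Car1, Kel and Slc4a1 on a log axis, and the right panel alpha over beta globin. cKO stands apart in the left panel (mean 3.03), and APP/PS1 stands apart in the middle panel (mean 555) and the right panel (mean 0.737).

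The other genes of the lineage were read from a list of 55, of which 53 were in the table and 48 were tested, 10 of them only through their WT libraries. In APP/PS1 against WT, 34 were called lower and 4 higher, and 10 did not pass, where 32.0% of all tested genes were called lower and 26.9% higher. In cKO against APP/PS1, 8 were called lower and 19 higher, and 21 did not pass, beside 27.7% lower and 27.3% higher over all genes. In cKO against WT, 33 were called lower and 5 higher, and 10 did not pass, beside 23.0% lower and 24.7% higher over all genes. The median log2 change of the list was -0.38, 0.09 and -0.36 in these comparisons, beside -0.04, -0.01 and -0.01 over all tested genes. Among the 38 genes that pass the filter without the WT libraries, 25, 8 and 24 were called lower and 4, 13 and 5 higher, a subset chosen after seeing the data.

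In APP/PS1 against WT all 14 membrane and membrane skeleton genes were called lower, 4 of them tested only through their WT libraries, beside 32.0% called lower over all genes. Epb42, which encodes protein 4.2, had 83, 66 and 77 counts in the WT libraries, 5, 1 and 2 in the APP/PS1 libraries and 7, 8 and 4 in the cKO libraries. It passed the filter on low counts only through its WT libraries, so that a fall against WT was favoured by the filter. It was lower in APP/PS1 than in WT (log2 change -4.63, SE 0.33, edgeR adjusted p 3.18e-12), and its libraries in APP/PS1 and cKO overlapped. In cKO against APP/PS1, 6 of the 14 genes were called higher, beside 27.3% over all genes, and 8 did not pass. Epb42 was among those that did not pass, with a log2 change of 1.17 (SE 0.54, edgeR adjusted p 0.0697).

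In cKO against WT, 13 of the 14 membrane genes were called lower, beside 23.0% over all genes. The largest fall was that of Rhd, a Rhesus blood group protein, with a log2 change of -3.71 (SE 0.32, edgeR adjusted p 1.88e-10). Epb42 followed with a log2 change of -3.46 (SE 0.28, edgeR adjusted p 6.30e-11). Both genes were tested only through their WT libraries, where they are high, so these falls are given as values and support nothing about the list. Rhd was at 8.79% of WT in APP/PS1 and at 7.49% in cKO, and the difference between these levels did not pass the test (log2 change -0.23, SE 0.51, edgeR adjusted p 0.730). Other membrane genes changed less, such as Epb41, which encodes protein 4.1 and stood at 78.5% of WT in APP/PS1 and 87.6% in cKO.

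Genes of haem synthesis and iron supply other than Alas2 changed far less than Alas2 in the comparisons with WT. In APP/PS1 against WT 7 of 11 were called lower, 2 higher and 2 did not pass (all genes: 32.0% lower and 26.9% higher), with log2 changes between -0.76 and 0.59. Slc25a37, the mitochondrial iron importer mitoferrin 1, had the largest fall in this group (log2 change -0.76, SE 0.04, edgeR adjusted p 1.27e-15). Tmem14c, which carries porphyrin precursors in mitochondria, rose (log2 change 0.59, SE 0.05, edgeR adjusted p 4.14e-11). In cKO against APP/PS1, 3 of 11 were called lower and 3 higher, near the 27.7% and 27.3% called in each direction over all genes, so these counts show nothing particular to the group. Uros, the fourth enzyme of the pathway, was among the lower ones (log2 change -0.48, SE 0.11, edgeR adjusted p 0.000565), a change about as large as that of Alas2. In cKO against WT, 7 were called lower and 1 higher, beside 23.0% and 24.7% over all genes, and the higher one was Tmem14c (log2 change 0.27, SE 0.05, edgeR adjusted p 6.03e-05). On TPM its change there was 0.09 on the log2 scale with a pseudocount of 1 (limma adjusted p 0.156).

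Of the 9 genes for transcription factors and the erythropoietin receptor, 3 were tested only through their WT libraries. In APP/PS1 against WT 6 were called lower and 1 higher (all genes: 32.0% and 26.9%), and in cKO against WT 4 were called lower and 2 higher (all genes: 23.0% and 24.7%). The master regulators Gata1 and Klf1 were among those that fell in both. Gata1 had a log2 change of -2.54 in APP/PS1 (SE 0.34, edgeR adjusted p 4.88e-07) and -2.77 in cKO (SE 0.35, edgeR adjusted p 2.84e-07), each against WT. Klf1, which switches on adult globin genes, had a log2 change of -3.52 in APP/PS1 (SE 0.46, edgeR adjusted p 2.68e-07) and -1.504 in cKO (SE 0.34, edgeR adjusted p 0.000563). Klf1 was higher in cKO than in APP/PS1 (log2 change 2.02, SE 0.58, edgeR adjusted p 0.00432), whereas Gata1 did not pass there (log2 change -0.23, SE 0.51, edgeR adjusted p 0.728). Both were low, with WT means of 1.71 CPM for Gata1 and 1.10 CPM for Klf1, and both passed the filter only through their WT libraries, which favours a fall against WT.

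Nfe2, a factor of erythroid cells and megakaryocytes that neutrophils also express, did not follow the members. It was at 14.1 CPM ± 0.181 (SD, n = 3) in WT, 3.21 ± 0.225 in APP/PS1 and 34.0 ± 1.92 in cKO. It was called lower in APP/PS1 than in WT (log2 change -2.13, SE 0.10, edgeR adjusted p 3.91e-16) and higher in cKO than in WT (log2 change 1.27, SE 0.06, edgeR adjusted p 2.03e-15), where Gata1 was lower. The summed neutrophil and monocyte markers moved in the same directions, to 30.9% of WT in APP/PS1 and 293% in cKO, and their part in the Nfe2 values was not tested. Lmo2, a cofactor also made by many other blood cells, rose from WT to APP/PS1 (log2 change 0.50, SE 0.03, edgeR adjusted p 3.90e-13).

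Among 13 tested genes of terminal maturation, 2 of them tested only through their WT libraries, 7 were called lower in APP/PS1 against WT, 1 higher, and 5 did not pass (all genes: 32.0% lower and 26.9% higher). Hemgn, a nuclear protein of erythroid precursors, was 125-fold higher in WT than in APP/PS1 over the summed counts (95% exact interval 42.6 to 610, 3 counts in APP/PS1) and 13.6-fold higher in cKO than in APP/PS1 (4.34 to 68.5). Cldn13, a claudin of erythroid cells, had 57 counts in WT, 5 in cKO and 0 in APP/PS1, so WT was at least 17.3-fold higher than a floor of 3 counts over the APP/PS1 group. Cldn13 too was tested only through its WT libraries. These 2 genes had their lowest counts in APP/PS1. The other genes of this list that are named here changed less. Blvrb, a biliverdin reductase abundant in red cells, was lower in cKO than in APP/PS1 (log2 change -0.69, SE 0.09, edgeR adjusted p 1.56e-06). Isg20, an exonuclease, was higher in cKO than in WT (log2 change 0.68, SE 0.10, edgeR adjusted p 2.04e-06). The mitophagy receptor Bnip3l rose from WT to APP/PS1 (log2 change 0.22, SE 0.03, edgeR adjusted p 1.92e-06), but on TPM it was lower (-0.18).

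**Figure D4:**
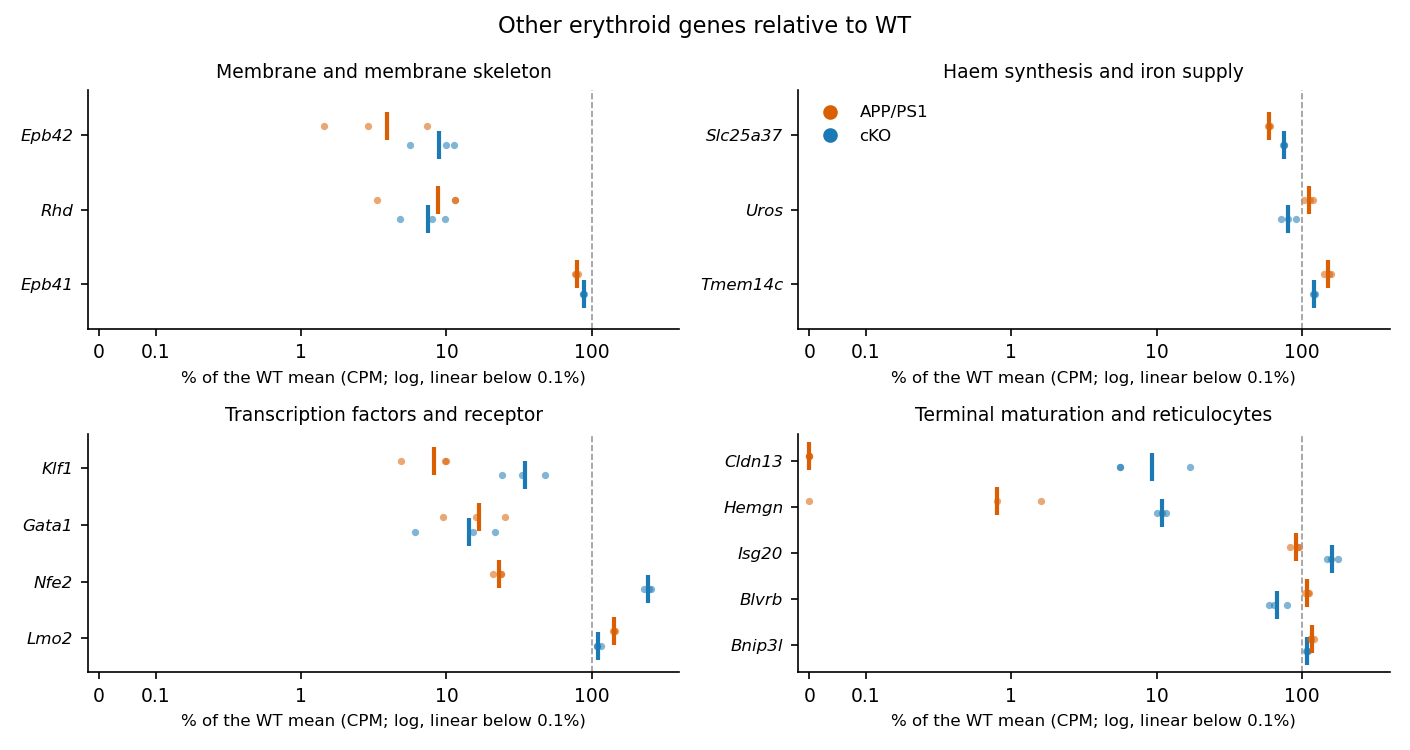
Level of 15 genes of the other erythroid list, those described in the text, in APP/PS1 and cKO as a percentage of the WT mean (CPM), in 4 groups by role, on log axes that are linear below 0.1%. Points are libraries, vertical marks are group means and the dashed line is WT. Hemgn, Cldn13 and Klf1 are lower in APP/PS1 than in cKO, and the 3 genes of haem synthesis and iron supply have group means between 59.1% and 151% of WT.

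Markers of other blood cells differed between the same groups. The summed level of 12 neutrophil and monocyte markers was 3089 to 3126 CPM in WT, 944 to 971 in APP/PS1 and 9034 to 9237 in cKO, so that APP/PS1 was lowest, as for Slc4a1, Car1 and Kel, but cKO was highest. All 12 were called lower in APP/PS1 than in WT, beside 32.0% of all genes, while in cKO against WT 10 were called higher and 2 lower, beside 24.7% and 23.0%. Those 2, Mpo and Elane, which encode proteins of early granules, had the order of Slc4a1, Car1 and Kel: Mpo had log2 changes against WT of -5.88 in APP/PS1 and -0.69 in cKO, and Elane of -6.20 and -0.79. They are named after their values were seen. The sum of 5 of 6 B cell markers in the table was 30.3 to 32.7 CPM in WT, 10.1 to 11.6 in APP/PS1 and 19.1 to 20.1 in cKO, the order of Slc4a1, Car1 and Kel. The sum of 12 platelet and megakaryocyte markers was 77.3 to 79.5 CPM in WT, 71.3 to 72.5 in APP/PS1 and 36.6 to 38.3 in cKO. Of these 12, 6 were called lower, 2 higher and 4 neither in APP/PS1 against WT, and 10 were called lower in cKO against WT. The sum of 12 vessel cell markers was 935 to 950 CPM in WT, 911 to 925 in APP/PS1 and 698 to 722 in cKO. The microglial sum was 119% of WT in APP/PS1 and 103% in cKO, but its 10 markers moved both ways. In APP/PS1 against WT 6 of them were called higher, 3 lower and 1 neither. In cKO against WT 6 were called higher and 4 lower. Fcrls had the largest rise in both comparisons (log2 change 3.02 and 2.67). The largest fall was that of Csf1r in APP/PS1 (-0.48) and of Cx3cr1, the locus that carries the Cre, in cKO (-0.90). None of these markers was at 0 in every library of a group, and their part in the erythroid values was not tested.

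**Figure D5:**
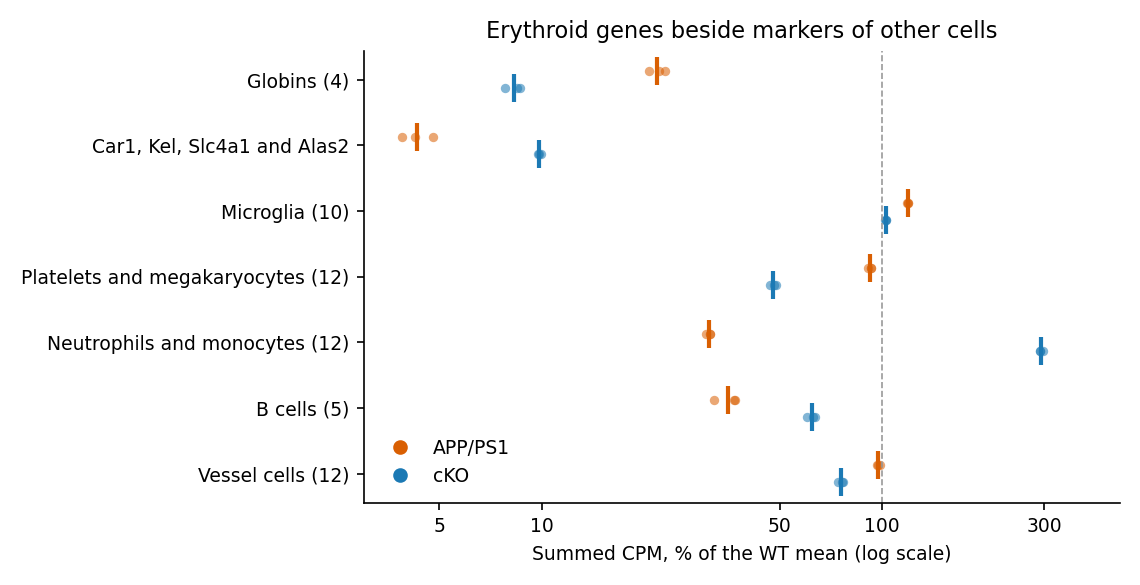
Summed CPM of the globins, of Car1, Kel, Slc4a1 and Alas2, and of marker lists of other cells in APP/PS1 and cKO, as a percentage of the WT mean on a log axis; the number of genes is in brackets. Points are libraries, vertical marks are means and the dashed line is WT. The globin sum is at 21.9% and 8.30% of WT in APP/PS1 and cKO, the sum of the 4 precursor genes at 4.31% and 9.84%, and the neutrophil and monocyte sum at 30.9% and 293%.

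The genes whose pattern was most like the globins were ranked by the Euclidean distance to the globins' mean log2 changes against WT, -2.25 in APP/PS1 and -3.54 in cKO, over 13586 other tested genes with a WT mean of at least 1 CPM. The 10 nearest were Gm42031 (0.64), Chga (0.72), Cxcl5 (0.82), Gata1 (0.82), Fcmr (0.83), Nmnat1 (0.86), Fbxw23 (0.90), Fcer2a (0.92), Dsp (0.92) and Tex11 (0.97), with distances on the log2 scale in brackets. Gata1 was the only gene of the other erythroid list among them. It passed the filter on low counts only through its WT libraries, with means of 0.289 CPM in APP/PS1 and 0.245 in cKO. Of the precursor genes Alas2 lay at 0.78, which only 2 of these genes undercut, whereas Ermap lay at 3.46, Slc4a1 at 4.47, Kel at 4.92 and Car1 at 5.81. The distance rests on 9 libraries and is a description without a test.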

How the data were processed

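Poly-A RNA was read as single ends of 50 bases on a DNBSEQ platform, per the labels. The submitters' processing notes name HISAT, Bowtie2, DESeq2 and the build GRCm38.p6 without roles or versions, and the counting program and annotation are not given in the sources used here. For every gene and library the deposited table holds 4 values, per the file headers. The deposited estimated counts carry decimals and are unscaled. The deposited FPKM and TPM values are per transcript length. The deposited normalised counts, a signal scaled by 1 factor per library, were not used here.

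The estimated counts were rounded, although the design had assumed plain counts, and tested with edgeR 4.0.16 (R 4.3.3). The quasi-likelihood test used TMM factors, the filterByExpr filter, robust dispersion and 1 mean per genotype over all 9 libraries. P-values were adjusted by Benjamini-Hochberg over the 14696 tested genes of a comparison. CPM uses TMM-scaled library sizes. With 3 libraries a group, the biological coefficient of variation was 3.14%. Where the APP/PS1 group held 1 to 3 counts, ratios were taken over summed counts with exact 95% intervals, and where it held 0, a floor of 3 counts over the group was used. On simulated data for APP/PS1 against WT, the steps recovered 81.9% of 1.5-fold, 94.8% of 2-fold and 98.3% of 4-fold changes. There, 83, 58 and 59 of 14548 genes carried these changes, and 5.73% of calls were false. In the real comparison 8670 of 14696 genes were called, so that share of false calls need not hold.

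The 9 genes and the lists were chosen with earlier results of these data known. All 9 genes are named in every comparison. Of the other erythroid list the 3 largest and 3 smallest changes among called genes with a mean of at least 1 CPM are named, with further genes where a role needs them. Some genes that this rule picks are not reported here, although counts over the list include them. Promoter windows, gene places and names came from RefSeq tables of GRCm38.p6, and shared stretches from GENCODE transcripts; no window is shown for Car1 and Slc4a1. Alternatives were DESeq2 1.42.0, library totals in place of TMM, other filters on low counts, only the groups compared, the replicate number as a block, limma-trend (limma 3.58.1) on log2 TPM or FPKM with pseudocounts of 1 or 0.1, and leaving out each library. Over 10813 genes, the deviations of same-numbered libraries from their group means correlated at 0.15 to 0.29 for APP/PS1 with WT, 0.11 to 0.30 for cKO with WT and 0.06 to 0.24 for cKO with APP/PS1. A criterion of above 0.1 in every pair was met in the comparisons with WT. In cKO against APP/PS1 it was missed only by the libraries numbered 3, at 0.06. Different-numbered libraries of these groups correlated at -0.26 to 0.04, below every same-numbered pair, so pairing there was not settled. The labels do not say what a number marks.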

Additional observations from a re-analysis of the deposited data

How the results depend on the processing

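Of 476 log2 changes of the members recomputed under alternatives, 470 kept both their direction and their side of the threshold. The 1 reversed in sign was Ermap in cKO against APP/PS1, at 0.0876 on TPM against -0.0939, which passed in neither. The 5 lost calls were all Alas2 in cKO against APP/PS1, among them DESeq2 (log2 change -0.41, adjusted p 0.0767) and limma-trend on TPM (-0.16, adjusted p 0.0758); its adjusted p ran from 0.00416 to 0.156. A pseudocount of 1 understates the changes of low genes: for Slc4a1 on FPKM the log2 change in APP/PS1 against WT was then -3.44 and in cKO against APP/PS1 0.83. With at least 10 counts in every library, Car1, Kel and Slc4a1 left the test, and the number of members higher in cKO than in APP/PS1 was 0 of 6 tested; the number for the other list was then 12. On TPM, 2 genes of the other list were higher in APP/PS1 than in WT and 5 lower in cKO than in APP/PS1. Those higher in cKO than in WT numbered 3 with library totals, 2 on TPM and 3 on FPKM with either pseudocount. The cause was not tested, but TPM moved the median log2 change of all genes in APP/PS1 against WT to -0.35 and library totals moved it to -0.17. The share of higher among all calls there was 45.7%, against 29.5% with library totals, 14.7% on TPM and 30.2% on FPKM. In cKO against WT it was 51.9%, against 30.4% with library totals, 19.8% on TPM, 32.0% on FPKM with a pseudocount of 1 and 31.9% with 0.1, and in cKO against APP/PS1 it was 49.6%, against 75.3% on TPM.

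The ratio of globins to precursor genes in WT, APP/PS1 and cKO was 56.2, 61.1 and 20.5 on TPM, 14.8, 76.1 and 12.5 without Ermap, and 21.2, 555 and 17.5 against Car1, Kel and Slc4a1. The ratio of alpha to beta globin on TPM was 1.24, 0.846 and 1.12. Leaving out each library, the members called lower in cKO against APP/PS1 numbered 4 to 5 and those higher 3 to 3, and genes of the other list called higher there numbered 14 to 19. In these runs members called lower than WT stayed at 9 in both comparisons, and the other list's lower calls were 31 to 34 in APP/PS1 and in cKO.

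With the replicate block the members called were again 9 lower in APP/PS1 against WT, 5 lower and 3 higher in cKO against APP/PS1, and 9 lower in cKO against WT. For the other list the block gave 35 lower and 4 higher, 9 lower and 21 higher, and 34 lower and 5 higher in these comparisons, and it changed the call of no erythroid gene named in the report. Calls over all genes went from 8670, 8085 and 7010 to 9319, 8851 and 7934, and the coefficient of variation from 3.14% to 0.988%. The counts of Car1 and Kel in APP/PS1, 1 each over the group, limit their ratios to wide intervals, and the spread between libraries is small enough that changes of a few percent in abundant genes pass the test.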

Other observations

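Minor globin genes were near the limit of detection. Hbb-bh2, a beta-like globin gene, was the single one tested, at 0.609 CPM ± 0.242 (SD, n = 3) in WT, 0.434 ± 0.238 in APP/PS1 and 0.420 ± 0.0554 in cKO, and it passed the edgeR test in no comparison (adjusted p 0.327, 0.944 and 0.311). Hbq1b, a theta globin gene, had 22 counts over the WT libraries, 0 over APP/PS1 and 5 over cKO, so WT was at least 6.69-fold higher than a floor of 3 counts over the APP/PS1 group. The embryonic gene Hbb-y had 1 count over WT, 3 over APP/PS1 and 0 over cKO.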
